A study of Mus musculus with 12 samples.

Results

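The genes described are Trem2 and 8 genes that mark lipid-associated macrophages, namely Tyrobp, Gpnmb, Spp1, Cd9, Cd63, Lgals3, Fabp5 and Itgax. They were taken by symbol from tables of raw read counts, which list 23284 genes, and all 9 were found in both tables. The genes were picked with their difference between genotypes in lymph node already known, so the lymph node values below describe that choice and test nothing. RNA with poly(A) tails had been sequenced from 12 libraries, 3 in each of 4 groups. The groups were axillary lymph nodes of DKO mice, axillary lymph nodes of DKO/hA-I mice, spleens of DKO mice and spleens of DKO/hA-I mice. DKO mice lack both apolipoprotein E and apolipoprotein A-I, and DKO/hA-I mice carry the same deletions and overexpress human apolipoprotein A-I. No group had intact apolipoprotein E, so every comparison was made on that background. All mice were 30 weeks old and ate normal laboratory chow. The sources used here name neither the promoter of the human transgene nor the sex of the mice. Each library carried its own animal code, and no code was shared between the tissues.

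TREM2 is a receptor on macrophages and microglia that binds lipids and lipoproteins and signals through the adaptor TYROBP (DAP12), whose ITAM motif recruits the kinase SYK. Macrophages that take up much lipid, in adipose tissue, atherosclerotic plaques and the injured brain, are known to express TREM2 together with lysosomal, lipid-handling and matrix-binding proteins. These are called lipid-associated macrophages, and lymph nodes and spleen hold several other kinds of macrophage besides.

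Total counts ran from 5911835 in DKO node 2 to 11950825 in DKO node 3, and spleens held 8966001 to 11237680. Levels are given as CPM, counts relative to library size, scaled with TMM over the 12 libraries. The 6 B cell markers summed to between 1890 and 3392 CPM in the nodes, and the 7 erythroid markers to between 6768 and 39470 CPM in the spleens, against 14.3 to 279 CPM in the nodes. Mouse Apoa1 had 0 to 13 counts in any library. Apoe transcripts stood at 7.89 to 17.8 CPM over all libraries, and human APOA1 was not analysed here. The pseudogene Rpl31-ps12 had 2094 counts summed over the DKO nodes and 3 over the DKO/hA-I nodes, but 5 over the DKO spleens and 2162 over the DKO/hA-I spleens. The labels were followed in both tissues, and a mix-up of the labels in either would reverse the directions given for it.

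The promoter windows of 4 genes are printed because 3 of them (Trem2, Gpnmb, Spp1) had the largest lymph node differences and because Itgax shares a motif with Trem2 and Gpnmb. RefSeq windows on GRCm38.p6, from 250 bases before the transcription start to 50 after it, were found for 7 of the 9 genes, all but Tyrobp and Fabp5. Capitals mark matches on either strand to TGANTCA, the AP-1 type sequence, and to GAGGAA, a core bound by PU.1-type factors. The windows are Trem2 at chr17:48346151-48346450, Gpnmb at chr6:49036268-49036567, Spp1 at chr5:104434861-104435160 and Itgax at chr7:128129300-128129599, all on the plus strand.
Trem2: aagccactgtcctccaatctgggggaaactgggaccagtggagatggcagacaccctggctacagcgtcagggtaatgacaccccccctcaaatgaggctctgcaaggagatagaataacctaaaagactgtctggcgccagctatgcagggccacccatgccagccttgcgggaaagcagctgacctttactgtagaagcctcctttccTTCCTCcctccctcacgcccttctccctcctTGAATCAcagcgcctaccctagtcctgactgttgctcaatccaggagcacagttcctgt
Gpnmb: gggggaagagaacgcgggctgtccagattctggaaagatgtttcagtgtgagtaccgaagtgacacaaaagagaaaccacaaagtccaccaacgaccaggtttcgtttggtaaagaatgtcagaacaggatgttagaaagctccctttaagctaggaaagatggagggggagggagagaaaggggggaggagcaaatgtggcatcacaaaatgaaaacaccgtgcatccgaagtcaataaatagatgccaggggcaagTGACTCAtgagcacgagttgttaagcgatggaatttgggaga
Spp1: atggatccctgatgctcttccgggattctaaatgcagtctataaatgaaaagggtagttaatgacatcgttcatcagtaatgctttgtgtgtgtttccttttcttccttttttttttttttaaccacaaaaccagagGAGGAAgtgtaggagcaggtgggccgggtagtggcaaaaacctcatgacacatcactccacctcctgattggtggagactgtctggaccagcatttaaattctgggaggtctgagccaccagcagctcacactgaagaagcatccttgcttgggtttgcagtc
Itgax: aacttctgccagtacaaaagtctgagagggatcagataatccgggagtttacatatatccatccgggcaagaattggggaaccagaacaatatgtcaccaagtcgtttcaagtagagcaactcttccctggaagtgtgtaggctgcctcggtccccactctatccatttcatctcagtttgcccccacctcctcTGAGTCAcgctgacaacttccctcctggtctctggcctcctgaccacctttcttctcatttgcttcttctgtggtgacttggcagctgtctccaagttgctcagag

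TGANTCA stood at -9 relative to the start site in Trem2 (TGAATCA), at 8 in Gpnmb (TGACTCA) and at -56 in Itgax (TGAGTCA). It was present in 7.81% of the 32851 RefSeq windows. GAGGAA, present in 28.3% of the windows, stood at -40 in Trem2, at -113 in Spp1 and at both -244 and -59 in Cd63. The 4 motifs searched do not overlap one another in these windows. The E-box type sequences CACGTG and TCATGTG, bound by MITF and TFEB type factors, were in 7.15% and 3.77% of windows. They were in none of the 8 windows of the 7 genes that had one, including the second Spp1 window. Tyrobp and Fabp5 had no window to search. A match describes letters in the window only.

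Trem2 (chromosome 17, 48346401 to 48354147, plus strand, GRCm38) is the receptor of the group. In DKO nodes it stood at 115.8, 21.7 and 170.1 CPM, against 3.99, 4.25 and 5.05 CPM in DKO/hA-I nodes. The lowest DKO node was above the highest DKO/hA-I node, and the log2 fold change was 4.55 ± 0.71 (standard error, as for all log2 fold changes here). Tyrobp (chromosome 7, 30413760 to 30417585, plus strand) encodes the adaptor, which serves many other receptors of myeloid and NK cells as well. It stood at 257.1, 139.2 and 308.5 CPM in DKO nodes, against 110.9, 80.8 and 82.0 CPM in DKO/hA-I nodes, a log2 fold change of 1.38 ± 0.29. The adaptor thus had the smallest fold change of the 9 genes, although its groups did not overlap either. In bulk tissue, more cells of a type and more RNA per cell cannot be told apart.

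Gpnmb and Spp1 encode a lysosomal and cell-surface glycoprotein and the secreted matrix protein osteopontin. Gpnmb (chromosome 6, 49036546 to 49070929, plus strand) had 2068, 356 and 2167 CPM in DKO nodes, against 67.8, 55.2 and 86.8 CPM in DKO/hA-I nodes. Its log2 fold change was 4.46 ± 0.66, close to that of Trem2, and again DKO node 2 stood well below the other DKO nodes. Spp1 (chromosome 5, 104435118 to 104441050, plus strand) had 158.0, 108.4 and 340.1 CPM in DKO nodes, against 9.38, 5.78 and 4.73 CPM in DKO/hA-I nodes. With 4.94 ± 0.50 it had the largest log2 fold change of the 9 genes.

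Cd9 and Cd63 are tetraspanins, membrane proteins that organise partner proteins, and CD63 lies mainly in late endosomes and lysosomes. Cd9 (chromosome 6, 125460266 to 125494791, minus strand) was at 316.0, 125.3 and 430.1 CPM in DKO nodes, against 74.4, 72.4 and 83.7 CPM in DKO/hA-I nodes, a log2 fold change of 1.93 ± 0.39. Cd63 (chromosome 10, 128900989 to 128912822, plus strand) was at 488, 255.2 and 575 CPM in DKO nodes, against 179.0, 148.7 and 164.6 CPM in DKO/hA-I nodes, a log2 fold change of 1.43 ± 0.28. Neither gene's groups overlapped. Both have annotated processed pseudogenes (Cd9-ps and Cd63-ps), and reads from such copies could have been counted with the parent gene.

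Lgals3 encodes galectin-3, a lectin that binds β-galactosides and gathers on damaged lysosomes, and Fabp5 a cytosolic carrier of fatty acids. Lgals3 (chromosome 14, 47367751 to 47386160, plus strand) was at 762, 227.8 and 995 CPM in DKO nodes, against 126.3, 88.1 and 106.8 CPM in DKO/hA-I nodes. Its log2 fold change was 2.64 ± 0.49. Fabp5 (chromosome 3, 10012548 to 10016607, plus strand) was at 319.6, 156.4 and 222.8 CPM in DKO nodes, against 110.2, 71.1 and 61.3 CPM in DKO/hA-I nodes, a log2 fold change of 1.54 ± 0.30. Here too the groups were apart, but DKO node 1 and not DKO node 3 was the highest. Fabp5 also has a processed pseudogene, Fabp5l2, to which the same applies.

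Itgax (chromosome 7, 128129547 to 128150657, plus strand) encodes CD11c, an integrin α chain that pairs with the β2 chain and is found on dendritic cells and on some macrophages. It was at 545, 144.3 and 830 CPM in DKO nodes, against 115.7, 86.4 and 101.1 CPM in DKO/hA-I nodes, a log2 fold change of 2.34 ± 0.54. DKO node 2 was only a little above the highest DKO/hA-I node. The 9 conventional dendritic cell markers, which do not include Itgax, summed to 203.8 to 425 CPM in DKO nodes and 368 to 459 CPM in DKO/hA-I nodes. Of these 9 markers 0 were called, beside 6.87% of all genes tested in lymph node. Their part in the Itgax difference was not tested.

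**Figure D1:**
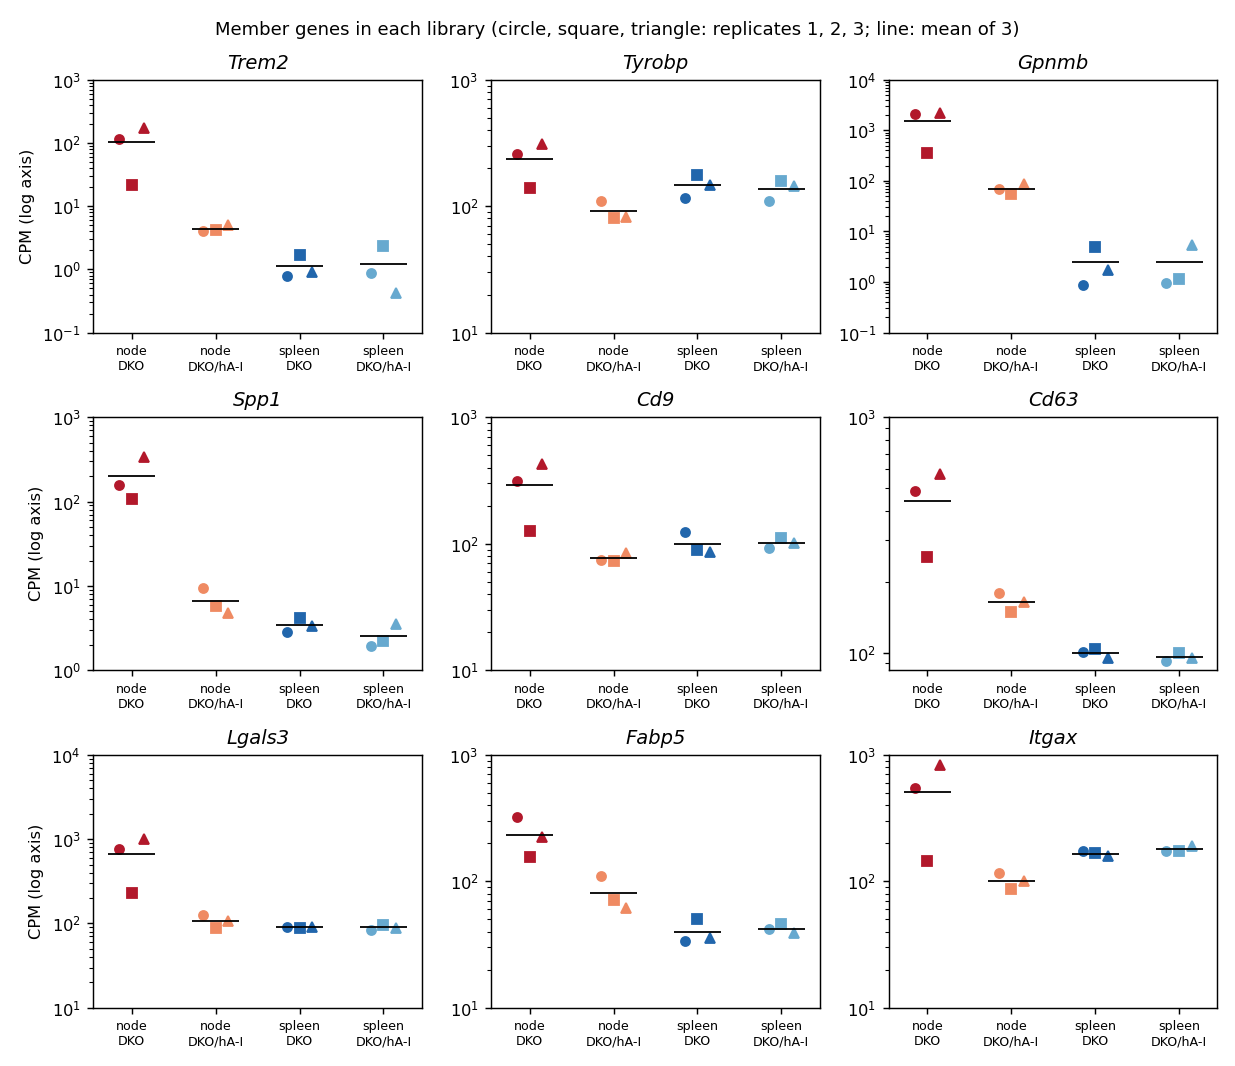
CPM (log axis, a range per panel) of each of the 9 genes in every library, with lymph node groups on the left and spleen groups on the right; circles, squares and triangles are replicates 1, 2 and 3 and lines are means of 3. In all panels the DKO nodes lie above the DKO/hA-I nodes and the square, DKO node 2, is the lowest DKO node, while the spleen groups lie side by side.

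In the lymph node comparison that chose the genes, edgeR called 9 of 9 higher in DKO nodes at an adjusted p under 0.05, where it called 3.95% of the 14012 genes tested higher and 6.87% in either direction. All 9 also had non-overlapping groups, as did 15.6% of the genes tested with DKO higher. The authors' deposited table calls all 9 in lymph node as well. Nothing is read from these counts, because the genes were selected on them. The call rested on the full set of libraries: 3 genes were called without DKO node 1, and 1 without DKO node 3. It was also 1 without DKO/hA-I node 1, 1 without DKO/hA-I node 2 and 2 without DKO/hA-I node 3, whereas 9 were called without DKO node 2. Over all genes, 962 were called with every library, 425 without DKO node 1, 2245 without DKO node 2 and 144 without DKO node 3. Without DKO/hA-I node 1, 2 or 3 it was 149, 115 or 433 genes. The fold changes kept their direction in each of these fits.

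The 9 genes together made up 5030, 1534 and 6039 CPM in DKO nodes, against 798, 613 and 696 CPM in DKO/hA-I nodes. Spleens held 619 to 685 CPM in DKO mice and 599 to 690 CPM in DKO/hA-I mice, so the sum in DKO/hA-I nodes was near that of either spleen group. Gpnmb alone supplied 41.1%, 23.2% and 35.9% of the sum in DKO nodes, 8.50% to 12.5% in DKO/hA-I nodes and at most 0.801% in spleen.

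Levels per kilobase used the length of the principal GENCODE transcript, and the order between genes rests on that choice. All annotated exons together cover 4946 bases for Trem2 against 1088 in that transcript, and 3682 against 1109 for Cd63. On this scale Lgals3 was highest in DKO nodes at 466 ± 277 CPM per kb (SD, n = 3, as below). Tyrobp followed at 417 ± 154, Gpnmb at 413 ± 275 and Cd63 at 396 ± 149 CPM per kb, and these 4 did not differ beyond their spread. Cd9 (237 ± 125), Fabp5 (236.0 ± 83.1), Spp1 (134 ± 80.9), Itgax (125 ± 85.2) and Trem2 (94.3 ± 69.0) came after them, with neighbours again within their spread. In DKO/hA-I nodes the order was Tyrobp (162 ± 30.2), Cd63 (148 ± 13.7), Fabp5 (81.9 ± 26.2), Lgals3 (75.4 ± 13.5), Cd9 (62.6 ± 4.94), Itgax (25.0 ± 3.61), Gpnmb (18.9 ± 4.30), Spp1 (4.40 ± 1.62) and Trem2 (4.07 ± 0.508 CPM per kb). Ranges of neighbours in this order overlapped for Tyrobp and Cd63, for Fabp5, Lgals3 and Cd9, for Itgax and Gpnmb, and for Spp1 and Trem2. Per kilobase, Gpnmb lay above the adaptor Tyrobp in DKO nodes 1 and 3, and below it in DKO node 2 and in every DKO/hA-I node. Trem2 had the lowest mean level per kilobase in both genotypes, although Spp1 lay below it in 3 of 6 nodes. Tyrobp lay above Trem2 in all 6 nodes.

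The genes varied together among the DKO nodes. The order was node 3, then 1, then 2 for 8 of the 9 genes, an order shared by 23.1% of all genes tested, and node 1, then 3, then 2 for Fabp5, an order of 21.9% of genes. DKO node 2, the lowest for all 9, was also the library with the fewest counts, and the part of its depth was not tested. The highest DKO node exceeded the lowest 7.82-fold for Trem2, 6.09-fold for Gpnmb, 5.75-fold for Itgax and 4.37-fold for Lgals3. The factor was 3.43 for Cd9, 3.14 for Spp1, 2.25 for Cd63, 2.22 for Tyrobp and 2.04 for Fabp5. Among DKO/hA-I nodes the factor ran only from 1.16 for Cd9 to 1.98 for Spp1, and the 9 genes fell into 4 different orders. Spp1 departed from Trem2 in DKO node 2, where it lay 1.66 log2 units above its mean over the 6 nodes, while Trem2 lay 0.23 above its own.

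DKO node 2 differed from the other DKO nodes in summed markers of other cells as well. The 7 neutrophil markers summed to 158 CPM in DKO node 1, 1232 CPM in DKO node 2 and 401 CPM in DKO node 3, against 53.9 to 201 CPM in DKO/hA-I nodes. Monocyte markers, also 7, summed to 511, 1232 and 769 CPM in the DKO nodes in that order, against 372 to 567 CPM in DKO/hA-I nodes. The 5 plasma cell markers summed to 1637, 8158 and 2046 CPM in the DKO nodes in the same order, against 990 to 1610 CPM in DKO/hA-I nodes. The sum over 7 markers of skin and mammary epithelium was also highest in DKO node 2, at 73.3 CPM. This sum does not stand for the 7 alike. Krt5, Krt14 and Krt15 were at 0 in the DKO nodes, while Epcam averaged 28.9 ± 37.5 CPM there (SD, n = 3). The other sums also rest most on abundant genes. In DKO nodes, Ly6c2 averaged 435 ± 318 CPM among monocyte markers and Igj 3050 ± 2726 CPM among plasma cell markers (SD, n = 3). Among neutrophil markers, S100a9 averaged 184 ± 180 CPM there (SD, n = 3). Such sums do not count cells. The parts of these cells in the low values of the 9 genes in that node were not tested.

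The genes whose profile over the 6 nodes was most like that of Trem2 were found by the root mean square difference in centred log2 CPM, among 14011 genes. Gpnmb was nearest at 0.20, ahead of Rnf128, an E3 ubiquitin ligase (0.23), Ctsk, the collagen-degrading protease cathepsin K (0.24), Mmp12, the macrophage elastase (0.28), and Mamdc2 (0.34). Ctsk had 329, 45.7 and 382 CPM in DKO nodes, against 14.6, 11.7 and 14.3 CPM in DKO/hA-I nodes. Mmp12 had 1303, 231.8 and 1894 CPM in DKO nodes, against 59.4, 71.7 and 92.0 CPM in DKO/hA-I nodes. Both shared the drop of Trem2 in DKO node 2, which follows from picking them for likeness to Trem2. Of the other 7 genes described, Spp1 ranked 23, Lgals3 35, Itgax 57, Cd9 104, Cd63 240, Fabp5 264 and Tyrobp 267. The measure is not scaled for the size of a change, so these ranks largely restate the fold changes between genotypes. A low rank therefore does not show a different order of the nodes. In spleen, Trem2 had at most 24 counts a library. The search there was limited to 3448 genes with a mean spleen level near that of Trem2. The nearest were Pabpc1l (0.18), Ankrd22 (0.23), Slc14a2 (0.27), Dgkb (0.27) and Dapl1 (0.28). The node and spleen searches ran over unlike sets of genes, so their lists cannot be set against each other. The measure describes 6 libraries at a time, which share group and depth.

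**Figure D2:**
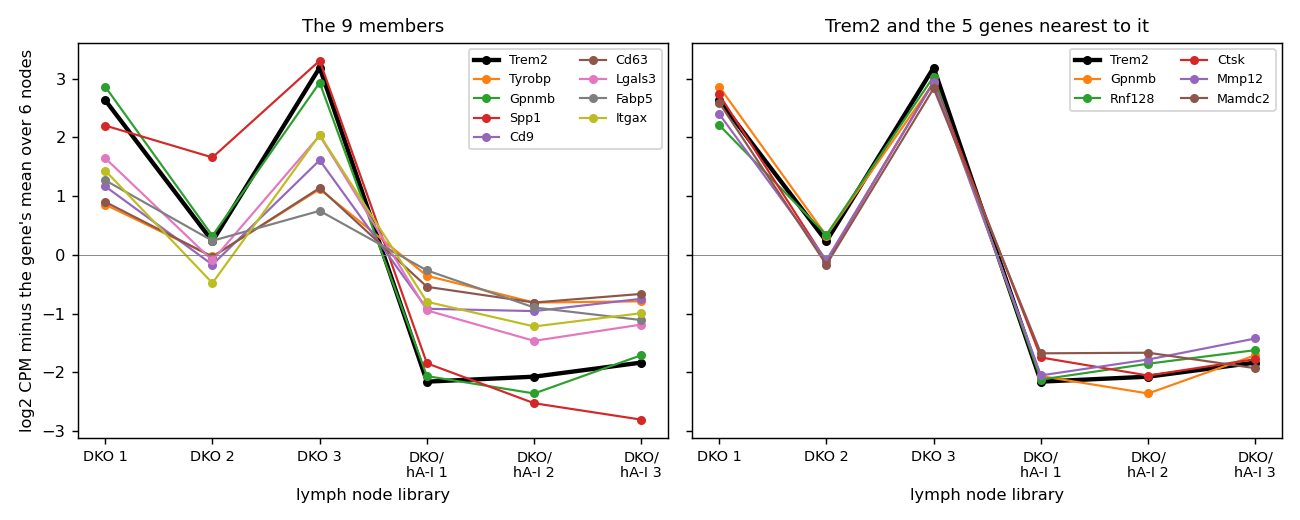
Log2 CPM of each gene minus that gene's mean over the 6 nodes, by lymph node library, for the 9 genes (left) and for Trem2 with its 5 nearest genes (right). Trem2 and Gpnmb nearly coincide, Spp1 stays high in DKO node 2, and Tyrobp, Cd63 and Fabp5 have the flattest profiles.

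Macrophage genes outside the set were also higher in DKO nodes, so each gene was set against 4 of them within the same library. The 12 macrophage markers summed to 6329 to 10564.5 CPM in DKO nodes and 3637 to 4553 CPM in DKO/hA-I nodes. Of the 12, edgeR called 8 higher, beside 3.95% of all genes tested, with a median log2 fold change of 1.79 beside 0.01 for all genes. Examples were the complement genes C1qb (2.11 ± 0.34, adjusted p = 0.0177) and C1qa (2.02 ± 0.30, adjusted p = 0.0147), the phagocytic receptor Mertk (1.65 ± 0.25, adjusted p = 0.0162) and the lipopolysaccharide co-receptor Cd14 (2.35 ± 0.38, adjusted p = 0.0177). The marker and gene lists were chosen with earlier results of these data known. Their counts and p-values in lymph node are therefore a description. The denominators moved unequally. Csf1r, the receptor for macrophage colony-stimulating factor, had 488, 409 and 588 CPM in DKO nodes against 402, 367 and 313 CPM in DKO/hA-I nodes. Cd68, a lysosomal glycoprotein, had 355, 126.8 and 437 CPM in DKO nodes against 92.8, 73.5 and 60.5 CPM in DKO/hA-I nodes.

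Relative to Csf1r, all 9 genes had non-overlapping ratios in the nodes with DKO higher, as had 4.33% of all genes tested, with log2 differences (DKO minus DKO/hA-I) from 0.85 for Tyrobp to 4.37 for Spp1. For Trem2 the ratio was 0.237, 0.0531 and 0.289 in DKO nodes, against 0.00994, 0.0116 and 0.0161 in DKO/hA-I nodes. Relative to Cd68, 4 genes kept non-overlapping groups with DKO higher, beside 0.343% of all genes, with log2 differences of 2.96 for Spp1, 2.24 for Trem2, 2.23 for Gpnmb and 0.54 for Lgals3. The other 5 overlapped, at -0.56 for Tyrobp, -0.52 for Cd63, -0.35 for Fabp5, -0.11 for Cd9 and 0.15 for Itgax. Against Emr1, which encodes the macrophage antigen F4/80, only Spp1 (3.03), Trem2 (2.31) and Gpnmb (2.30) of the 9 genes kept non-overlapping groups, beside 0.271% of all genes. Against Lyz2, the lysozyme gene, 5 of 9 were apart with DKO higher, beside 1.99% of all genes. Those 5 were Trem2, Gpnmb, Spp1, Lgals3 and Fabp5. These ratios use the libraries that chose the genes and carry no test, and nothing is read from their counts.

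**Figure D3:**
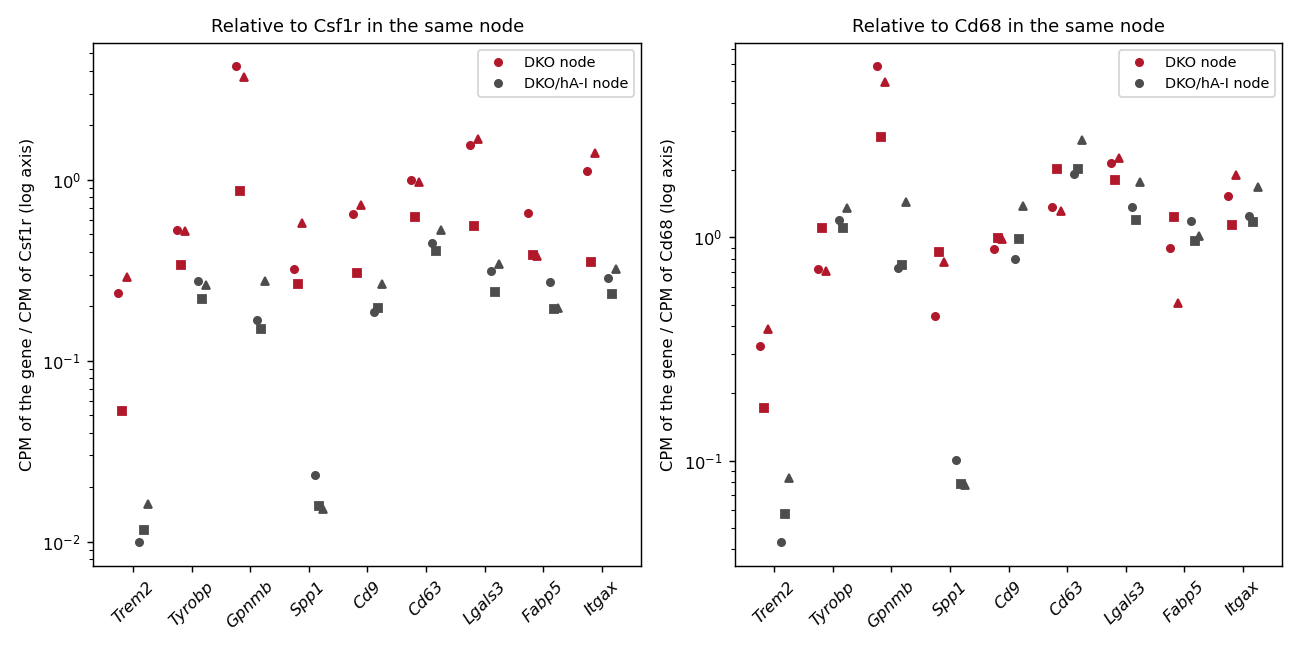
Ratio of each gene's CPM to that of Csf1r (left) and Cd68 (right) in the same lymph node, on log axes, for 3 DKO nodes (red) and 3 DKO/hA-I nodes (grey); circles, squares and triangles are replicates 1, 2 and 3. Against Csf1r the groups are apart for all 9 genes, and against Cd68 for Trem2, Gpnmb, Spp1 and Lgals3.

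The genes were picked on their lymph node difference, with earlier results of these data known, and in spleen no gene of the set was called. Of the 8 genes with enough counts to be tested by edgeR, 0 were called, where 0.00714% of the 14009 genes tested, which is 1 gene, were called. None of the 8 had an unadjusted p under 0.05, which 617 genes had, and DESeq2 called 0 as well. The median log2 fold change of the 8 genes was 0.00, beside 0.01 for all genes. The authors' deposited table gives q-values of at least 0.999991 for all 9 in spleen.

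Trem2 did not pass the filter on low counts in spleen and has no spleen test. It had 7, 17 and 9 counts in DKO spleens (0.773, 1.66 and 0.900 CPM), against 10, 24 and 5 counts in DKO/hA-I spleens (0.882, 2.31 and 0.431 CPM). The DKO range lay within the DKO/hA-I range. Tyrobp was abundant in the same libraries, at 115.4, 175.3 and 147.4 CPM in DKO spleens and 110.0, 157.6 and 143.1 CPM in DKO/hA-I spleens. Its log2 fold change was 0.08 ± 0.17 (edgeR adjusted p = 0.955).

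Gpnmb and Spp1 were also near the bottom of the range in spleen. Gpnmb was at 0.883, 4.98 and 1.70 CPM in DKO spleens and 0.970, 1.15 and 5.34 CPM in DKO/hA-I spleens. With one high library in each group its log2 fold change was 0.01 ± 0.83 (edgeR adjusted p = 0.999), with a standard error far above the value itself. Spp1 was at 2.87, 4.2 and 3.30 CPM in DKO spleens and 1.94, 2.21 and 3.53 CPM in DKO/hA-I spleens. Its log2 fold change of 0.42 ± 0.29 was the largest of the 8 (edgeR adjusted p = 0.929, unadjusted p = 0.177).

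The remaining genes had narrow errors in spleen. Cd63 was at 100.3, 103.6 and 95.2 CPM in DKO spleens and 92.2, 99.3 and 95.2 CPM in DKO/hA-I spleens (log2 fold change 0.05 ± 0.10, edgeR adjusted p = 0.951). Lgals3 was at 90.1, 88.1 and 91.0 CPM in DKO spleens and 83.8, 96.9 and 88.3 CPM in DKO/hA-I spleens (-0.01 ± 0.10, edgeR adjusted p = 0.993). For both, the ranges of the genotypes lay across each other. Cd9 was at 122.7, 89.7 and 86.1 CPM in DKO spleens and 92.6, 110.4 and 100.8 CPM in DKO/hA-I spleens (-0.03 ± 0.15, edgeR adjusted p = 0.981). Fabp5 was at 34.0, 50.3 and 35.9 CPM in DKO spleens and 42.3, 45.5 and 38.8 CPM in DKO/hA-I spleens (-0.08 ± 0.16, edgeR adjusted p = 0.952).

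Itgax was the one gene of the set whose spleen groups did not overlap, at 172.3, 167.3 and 157.5 CPM in DKO spleens and 174.1, 174.3 and 191.1 CPM in DKO/hA-I spleens. Its log2 fold change was -0.13 ± 0.10 (edgeR adjusted p = 0.929), opposite in sign to the lymph node, and 5.53% of all genes had non-overlapping spleen groups with DKO lower. Set against Csf1r within each spleen, the ratios of Itgax and Lgals3 were apart and lower in DKO spleens, as were those of 20.1% of all genes. Csf1r itself was at 903, 988 and 986 CPM in DKO spleens and 805, 858 and 863 CPM in DKO/hA-I spleens, so it was higher in every DKO spleen. The log2 difference of the ratio was -0.31 for Itgax and -0.18 for Lgals3, each with an exact two-sided permutation p of 0.1, the smallest that 3 against 3 allows. Over the 9 ratios tested, the Benjamini-Hochberg adjusted value of these permutation tests was 0.45 at the lowest. The other 7 ratios to Csf1r had exact permutation p-values of 0.2 to 1. Against Emr1 the same 2 genes were apart and lower, beside 20.3% of all genes, and against Cd68 and Lyz2 none of the 9 was.

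**Figure D4:**
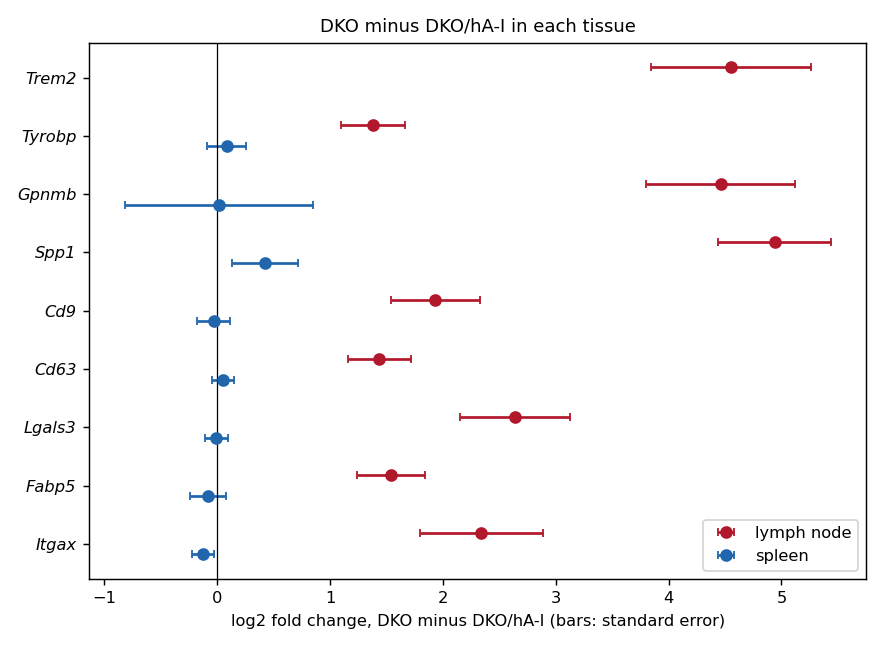
Log2 fold change of DKO minus DKO/hA-I with its standard error for each gene in lymph node (red) and spleen (blue), from edgeR. The lymph node values, on which the genes were chosen, run from 1.38 to 4.94, the 8 spleen values from -0.13 to 0.42, and Trem2 has no spleen value because it did not pass the count filter.

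Lymph node and spleen were compared by the mean over both genotypes in 1 edgeR fit of all 12 libraries. The nodes include the DKO nodes on which the genes were chosen, so higher values in lymph node can partly follow from that choice. The counts and p-values of this contrast are therefore a description for the 9 genes. The tissues came from animals with different codes, so tissue and animals cannot be told apart. Of the 9 genes, edgeR called 6 higher in lymph node, where 17.5% of the 14608 genes tested were called higher and 35.4% in either direction. None of the 9 was called lower. The median log2 difference (lymph node minus spleen) of the 9 was 1.57, beside 0.02 for all genes. Trem2, Gpnmb, Spp1, Cd63 and Fabp5 had non-overlapping tissues, as 6.44% of all genes had with lymph node higher.

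Gpnmb had the largest tissue difference, 7.00 ± 0.58 on the log2 scale (edgeR adjusted p = 9.98e-07). Trem2 differed by 4.2 ± 0.52 (adjusted p = 3.84e-05) and Spp1 by 3.62 ± 0.31 (adjusted p = 1.58e-06). Fabp5 (1.74 ± 0.19, adjusted p = 1.26e-05), Lgals3 (1.57 ± 0.26, adjusted p = 0.000414) and Cd63 (1.46 ± 0.16, adjusted p = 1.08e-05) were called higher with smaller values. The adaptor Tyrobp, at 0.05 ± 0.18, did not pass the test (edgeR adjusted p = 0.857), nor did Itgax (0.39 ± 0.29, adjusted p = 0.321) or Cd9 (0.58 ± 0.22, adjusted p = 0.0619). The receptor gene was thus called between the tissues and the adaptor gene was not, and the difference between them was not tested. Per kilobase, Tyrobp stood first in spleen at 259 ± 53.1 CPM per kb in DKO and 243 ± 43.2 in DKO/hA-I mice, while Trem2 stood at 1.02 ± 0.441 and 1.11 ± 0.900 CPM per kb (SD, n = 3 each). The order of the 9 genes was the same in both spleen groups.

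The tissue difference was not alike in the 2 genotypes, as the choice of genes would give. Within DKO mice edgeR called 8 of the 9 genes higher in lymph node, where 11.3% of all genes were called higher. The log2 differences were 9.21 for Gpnmb, 6.51 for Trem2, 5.86 for Spp1, 2.88 for Lgals3, 2.54 for Fabp5, 2.14 for Cd63, 1.61 for Itgax and 1.55 for Cd9, and Tyrobp, with 0.69, was not called (adjusted p = 0.0737). Within DKO/hA-I mice it called 4, where 11.8% of all genes were called higher. These were Gpnmb at 4.79 ± 0.77 (edgeR adjusted p = 0.000515), Spp1 at 1.37 ± 0.46 (adjusted p = 0.0441), Fabp5 at 0.94 ± 0.26 (adjusted p = 0.0184) and Cd63 at 0.78 ± 0.22 (adjusted p = 0.0181). Trem2, at 1.89 ± 0.77, did not pass in DKO/hA-I mice in this fit (adjusted p = 0.0921), but passed when edgeR was fitted to the DKO/hA-I libraries alone (adjusted p = 0.00858).

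In the fit of all 12 libraries the sign of 3 genes was negative within DKO/hA-I mice. In DKO/hA-I mice the log2 difference of lymph node minus spleen was -0.83 ± 0.41 for Itgax (edgeR adjusted p = 0.165), -0.59 ± 0.26 for Tyrobp (adjusted p = 0.122) and -0.40 ± 0.32 for Cd9 (adjusted p = 0.411). In the fit of the DKO/hA-I libraries alone all 3 passed, with edgeR adjusted p-values of 0.000355 for Itgax, 0.0209 for Tyrobp and 0.0166 for Cd9. That fit called 8 of the 9 genes, 5 higher and 3 lower in lymph node, and 31.8% of the 14274 genes tested in either direction. Lgals3 was the gene that did not pass in it (adjusted p = 0.180). Macrophage markers had a median of -1.05 within DKO/hA-I mice in the other fit, that of all 12 libraries. In it, 8 of the 12 markers were called lower and 1 higher in DKO/hA-I nodes than in DKO/hA-I spleens. Over all genes that fit called 14.0% lower and 11.8% higher. Their part in the 3 negative values was not tested.

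The same 12 libraries also give the genotype effect of lymph node with the spleen effect subtracted. For that contrast edgeR called 8 of 9 genes higher, where 2.04% of all genes were called higher and 3.33% in either direction, and nothing is read from it because it uses the contrast that chose the genes.

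**Figure D5:**
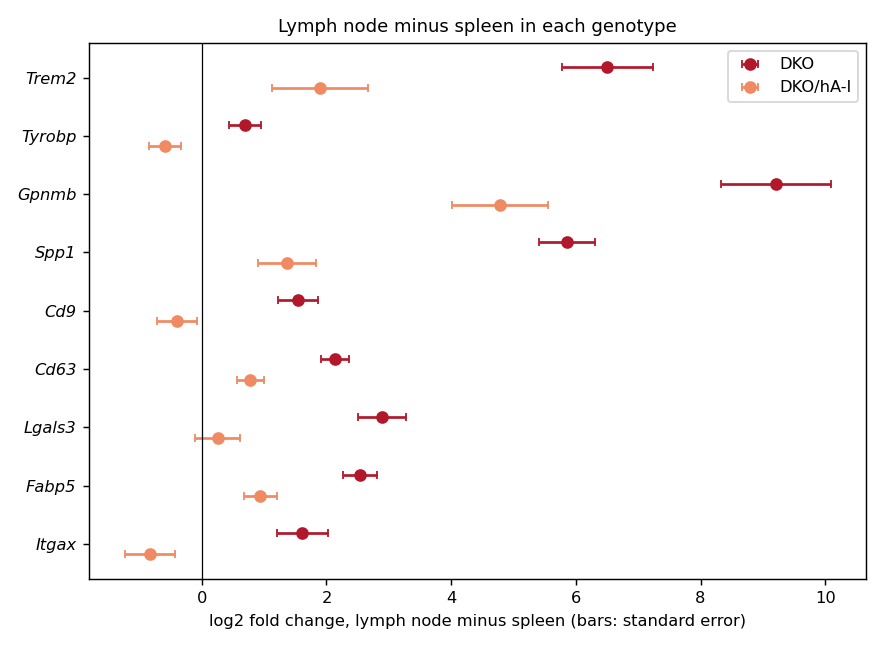
Log2 fold change of lymph node minus spleen with its standard error for each gene within DKO mice (dark red) and within DKO/hA-I mice (orange). Gpnmb is higher in lymph node in both genotypes, at 9.21 and 4.79, while Tyrobp, Cd9 and Itgax lie above 0 in DKO mice and below 0 in DKO/hA-I mice.

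Among 26 further genes of lipid-associated macrophages, edgeR called 10 higher and 1 lower in DKO nodes. Over all genes tested in lymph node, 3.95% were called higher and 6.87% in either direction, which applies to every list below. Each list was chosen with earlier results of these data known, so its counts and p-values are a description. The median log2 fold change of the 26 was 1.03, beside 0.01 for all genes. Atp6v0d2, a subunit of the lysosomal proton pump, averaged 189 ± 126 CPM in DKO nodes and 14.0 ± 2.29 CPM in DKO/hA-I nodes (SD, n = 3 each; log2 fold change 3.77 ± 0.59, adjusted p = 0.0177). Mmp12 rose by 3.95 ± 0.69 (adjusted p = 0.0227) and Creg1, a lysosomal glycoprotein, by 1.54 ± 0.29 (adjusted p = 0.0258). Fabp4, the fatty acid carrier of adipocytes and macrophages, was the exception, at 53.1, 82.9 and 86.3 CPM in DKO nodes against 733, 1046 and 351 CPM in DKO/hA-I nodes (log2 fold change -3.25 ± 0.41, adjusted p = 0.0118). In spleen 0 of the 26 were called, with a median of 0.01. Between the tissues, 16 were called higher and 3 lower in lymph node, beside 17.5% of all genes called higher and 35.4% in either direction.

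Fabp4 and Fabp5, close relatives, thus differed in opposite directions between the nodes. Of the fatty acid binding proteins other than Fabp5, 3 were tested. Fabp4 and Fabp3 (log2 fold change -3.73 ± 0.72, edgeR adjusted p = 0.0295) were called lower, and Fabp1 was not called (-1.01 ± 0.47, adjusted p = 0.229). Among the other galectins, Lgals12, an adipocyte galectin, was called lower (-3.81 ± 0.54, adjusted p = 0.0140) and the remaining 4 of 5 tested were not called. The 7 adipocyte markers summed to 18.7 to 56.5 CPM in DKO nodes and 397 to 1899 CPM in DKO/hA-I nodes. All 7 of these markers were called lower, beside 6.87% of all genes called in either direction. Their part in the Fabp4, Fabp3 and Lgals12 values was not tested.

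Of 21 signalling and shedding genes of TREM2 and TYROBP, edgeR called 2 higher and 0 lower in DKO nodes, beside the 3.95% of all genes called higher, with a median log2 fold change of 0.18. The 2 were Fcer1g, another ITAM adaptor (1.14 ± 0.24, adjusted p = 0.0347), and Card9, a scaffold downstream of SYK (0.99 ± 0.23, adjusted p = 0.0482). Of 14 tested genes of other TREM receptors and TYROBP partners, 2 were called higher, the lectin receptor Clec5a (1.92 ± 0.23, adjusted p = 0.00993) and Cd300lb (2.45 ± 0.54, adjusted p = 0.0398). A further 2 were called lower, Siglech, a receptor of plasmacytoid dendritic cells (-2.27 ± 0.22, adjusted p = 0.0073), and Klra8, an NK cell receptor (-1.36 ± 0.31, adjusted p = 0.0420). NK cell markers were lower too, with 3 of 7 called, beside 6.87% of all genes called in either direction. They summed to 55.5 to 74.9 CPM in DKO nodes against 82.2 to 116 CPM in DKO/hA-I nodes, and their part in the Klra8 value was not tested. In spleen no gene of either list was called. Treml4, a TREM family receptor of spleen macrophages, went the other way from Trem2 between tissues, at 10.9 to 15.5 CPM in DKO nodes and 98.2 to 116.7 CPM in DKO spleens (log2 difference over both genotypes -3.11 ± 0.10, adjusted p = 6.36e-10).

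Receptors for osteopontin and partners of CD11c were tested as a further list. Of 10 genes, edgeR called 3 higher and 0 lower in DKO nodes, beside 3.95% of all genes called higher, with a median of 0.67. They were Cd44, an osteopontin receptor (0.93 ± 0.15, adjusted p = 0.0177), Itgb2, the β2 chain that pairs with Itgax (0.98 ± 0.22, adjusted p = 0.0428), and Itgav, the αv integrin chain (0.74 ± 0.17, adjusted p = 0.0413). Itgad, a close relative of Itgax, was set apart by tissue, at 3.15, 12.5 and 5.65 CPM in DKO nodes and 256.1, 268.1 and 254.0 CPM in DKO spleens (log2 difference over both genotypes -5.92 ± 0.25, edgeR adjusted p = 3.32e-09). Of 11 other tetraspanins tested in lymph node, 1 was called, Cd81 (0.72 ± 0.14, adjusted p = 0.0288), and in spleen none of these lists had a called gene.

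Other cell types whose genes overlap with the set were examined by their markers. Of 6 osteoclast genes tested, 5 had a positive log2 fold change in lymph node, with a median of 1.65 beside 0.01 for all genes. Ctsk (4.23 ± 0.72, edgeR adjusted p = 0.0206) and Mmp9 (1.88 ± 0.29, adjusted p = 0.0170) were called higher in DKO nodes. Calcr, the calcitonin receptor, was at 0 in all DKO nodes. Gpnmb is also a melanocyte gene, and the 6 melanocyte markers summed to 4.68 to 5.23 CPM in DKO nodes and 8.26 to 12.9 CPM in DKO/hA-I nodes, with Tyrp1 at 0 in the DKO nodes. Markers of lymph node sinus and marginal zone macrophages went the other way from the set, summing to 280 to 405 CPM in DKO nodes and 1037 to 1618 CPM in DKO/hA-I nodes. Of 5 tested, 3 were called lower, namely Cd209b (-3.67 ± 0.38, adjusted p = 0.00781), Marco (-3.62 ± 0.41, adjusted p = 0.00948) and Timd4 (-1.83 ± 0.31, adjusted p = 0.0205). The 7 markers of skin and mammary epithelium summed to 9.26, 73.3 and 9.44 CPM in DKO nodes and 5.91 to 10.7 CPM in DKO/hA-I nodes, with Krt5, Krt14 and Krt15 at 0 in the DKO nodes. Neither of the 2 tested was called, and Epcam averaged 28.9 ± 37.5 CPM in DKO nodes and 5.46 ± 2.20 CPM in DKO/hA-I nodes (SD, n = 3 each; log2 fold change 2.38 ± 0.93, edgeR adjusted p = 0.165). Of the stromal genes, 4 of 8 were called higher, beside 3.95% of all genes, led by Pdpn (1.95 ± 0.31, adjusted p = 0.0170). The parts of these cell types in the values of the 9 genes were not tested.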

How the data were processed

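Per the labels, poly(A) RNA of 6 axillary lymph nodes and 6 spleens was sequenced. The submitters' processing notes name Trimmomatic, Bowtie, TopHat, Cuffdiff and GRCm38 (mm10). No version, annotation, counting program or strandedness is given in sources used here. The authors deposited raw counts per gene symbol and library, per the file headers, together with their q-value and significance call for each gene's genotype comparison in that tissue.

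The quasi-likelihood test of edgeR 4.0.16 (R 4.3.3) was run on the counts (filterByExpr with minimum count 10 and total 15, TMM, robust dispersions, DKO minus DKO/hA-I within each tissue). A further fit took all 12 libraries in 4 groups for lymph node minus spleen. Benjamini-Hochberg adjustment covered all genes tested, with a threshold of 0.05, and every adjusted p in the text is from edgeR. The steps were tested on simulated counts. Each standard error of a log2 fold change was derived from the test, as its absolute value divided by the square root of the edgeR F statistic. CPM are on the TMM scale, and log2 profiles used a prior count of 2. Alternatives were RLE size factors, DESeq2 1.42.0, no filter, blocks and leaving out each library. Counts within a group differed by 10 to 59.9 times the Poisson expectation per degree of freedom, so no library repeated another. The p-values measure the spread between animals of this series.

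The 9 genes and all gene lists were chosen with earlier results of these data known. Named list genes are up to 4 called members by adjusted p, otherwise values of abundant members; Treml4, Itgad, the ratio denominators and marker genes at 0 were singled out after their values were seen. Coordinates are from GENCODE vM21, which matched 9 of 9 symbols. Same-numbered libraries correlated at -0.141 to 0.108 in their deviations from group means, so replicate numbers do not pair animals. The DKO nodes share the middle number 75 of their animal codes and the DKO/hA-I nodes carry 76, 77 and 78, so whatever that number marks cannot be told apart from genotype in lymph node.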

Additional observations from a re-analysis of the deposited data

Results flagged for a closer look

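For 8 of the 9 genes the genotype difference itself differed between the tissues in the edgeR fit of all 12 libraries, where 3.33% of the 14608 genes tested did so in either direction and 2.04% with the larger value in lymph node. Because the lymph node contrast chose the genes, these values are a description. The log2 value of DKO minus DKO/hA-I in lymph node minus the same in spleen, was 4.61 for Trem2, 4.49 for Spp1 and 4.43 for Gpnmb. It was 2.63 for Lgals3, 2.45 for Itgax, 1.95 for Cd9, 1.60 for Fabp5 and 1.36 for Cd63. For Tyrobp it was 1.27 and did not pass. Leaving out single libraries left between 1 and 9 of the genes past the threshold.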

How the results depend on the processing

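In spleen, genes of the set called stayed at 0 under every setting, while all genes called moved from 1 to 5 with DESeq2, 515 with the middle number of the animal code as a block and 1 to 167 with 1 library left out (167 without DKO spleen 1). Small spleen fold changes turned sign when 1 library was left out, over ranges of -0.051 to 0.22 for Tyrobp, -0.93 to 1.24 for Gpnmb, -0.22 to 0.062 for Cd9, -0.047 to 0.056 for Lgals3 and -0.27 to 0.011 for Fabp5, and Fabp5 stood at 0.038 with a block for the middle number of the animal code (55 and 57 occur in spleens of both genotypes, 56 only in DKO spleen 1). With that block Tyrobp was at 0.29 (edgeR adjusted p = 0.10), Gpnmb at 0.63 (adjusted p = 0.610) and Spp1 at 0.61 (adjusted p = 0.249), and 0 of 8 genes were called. In lymph node, all genes called were 962, against 1967 with DESeq2 and 115 to 2245 with 1 library left out, and genes of the set called 1 to 9. Between tissues, all genes called were 5174, against 2204 in DKO libraries only and 4475 to 6193 with 1 library left out, with 6 to 8 genes of the set called. In DKO/hA-I libraries only, 8 genes of the set were called (5 higher, 3 lower), and Tyrobp was at -0.59, Cd9 at -0.40 and Itgax at -0.83. Without 1 library, the tissue difference of Tyrobp ran from -0.067 to 0.19. For the difference between tissues in the genotype effect, whose alternatives were chosen after seeing the data, genes of the set called fell to 4 with no filter, and all genes called were 487, against 973 with DESeq2. With 1 library left out these were 1 to 9 and 179 to 1160. The causes were not tested.

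With the replicate number as a replicate block, genes of the set called were 0 in spleen, 8 in lymph node and 6 between tissues, and 3 for the difference between tissues, while all genes called were 438 in lymph node and 299 for that difference. The numbers do not pair the animals.

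Of the 5 genes nearest to Trem2 over the 6 nodes, 2 stayed among the nearest 5 over 12 libraries, Ctsk and Mamdc2. Gpnmb, the nearest over the nodes, ranked 231 over 12 libraries, while Spp1 ranked 7. Trem2 had 5 to 24 counts per spleen library, which limits any spleen statement on it. Without DKO node 2, edgeR called 2245 genes in lymph node, and with it 962.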
